A study of Arabidopsis thaliana with 12 samples.

Results

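Wild-type Arabidopsis thaliana seedlings kept warm and seedlings lacking SPA function kept at ordinary temperature were set against each other directly. The comparison used 6 of the 12 RNA libraries of the study, 3 of Col-0 at 28 °C and 3 of spaQ at 22 °C, and all 17841 genes of 33655 listed features that passed a low-count filter. Col-0 is the reference wild-type accession, and spaQ is the usual name of a quadruple mutant of SPA1, SPA2, SPA3 and SPA4, whose alleles the labels do not name. All seedlings were grown on MS medium without sucrose, stratified for 3 days in the dark, grown for 5 days at 22 °C under white light of 25 µmol, and were 6 days old at harvest. The warm group then spent its last hours in the same light at 28 °C and the spaQ group at 22 °C; this step lasted 4 h by the sample protocols and 24 h by the design text. Genotype and temperature differ together between the 2 states, so their shares in any difference cannot be told apart from this comparison alone. The 3 Col-0 libraries at 22 °C therefore stand beside each result as a reference. Both reference contrasts use those same 3 libraries, so a direction shared by both is not independent evidence. They are given side by side, and no test compared them.

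SPA proteins join the ubiquitin ligase COP1 in a complex that marks light-signalling transcription factors such as HY5 and HFR1 for degradation, mostly in darkness and shade, and loss of SPA function leaves seedlings short, strongly light-responsive and rich in anthocyanin. Ambient warmth does something close to the opposite to the wild type: phytochrome B loses activity, the transcription factor PIF4 accumulates and drives auxin synthesis, and hypocotyls and petioles elongate, a response called thermomorphogenesis. SPA proteins are themselves needed for PIF4 to accumulate in the warmth.

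The libraries were made by 3′ Tag-Seq, which reads each transcript near its 3′ end, so counts do not scale with transcript length. Values below are CPM, read counts scaled to each library's total after TMM normalisation, and a log2 fold change is always warm Col-0 minus spaQ unless a reference contrast is named. A gene is called when its adjusted p from edgeR's quasi-likelihood test falls under 0.05. Totals were 9390725, 3382922 and 7699222 counts for warm Col-0 replicates 1 to 3 and 6366025, 2814074 and 2609808 for spaQ, and 3 counts, the detection floor, corresponded to between 0.279 and 1.25 CPM. Nothing in the labels says that replicates came from separate cultures, so p-values measure the spread between these samples only. Replicates of warm Col-0 lay 0.308 to 0.42 apart (root mean square log2 difference over genes) and those of spaQ 0.526 to 0.561, against 0.925 to 0.964 between the 2 states. Warm Col-0 replicate 2 had the lowest heat shock transcripts of its group, and spaQ replicate 1 the most root transcripts of its group; both are shown where they matter.

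As a check of tissue, the green-tissue transcripts of the labelled seedlings were abundant in every library, the light-harvesting antenna list summing to at least 19340 CPM. Root transcripts were a measured difference between the reference and both states. The 24 tested root markers, genes of root hairs, endodermis and root triterpene synthesis, summed to 354 to 379 CPM in Col-0 at 22 °C, but to 121 to 125 CPM in warm Col-0 and 125 to 186 CPM in spaQ. None of the 24 was at 0 in all 6 libraries of the compared states, and 12 further root markers had too few counts to test. In bulk samples fewer root cells and less RNA per root cell cannot be told apart. With the mean root marker level added to the model, the direct comparison had 7696 called genes, but warm Col-0 against Col-0 at 22 °C fell from 7283 (40.8% of tested genes, 18.9% higher and 21.9% lower) to 591 and spaQ against Col-0 at 22 °C from 7574 (42.5%, 20.7% higher and 21.7% lower) to 1794. Mean root marker level was 3.49 to 3.6 on the log2 CPM scale in Col-0 at 22 °C, against 0.908 to 2.13 in the 2 states. The term therefore largely coincided with the reference group. The falls cannot be read as dependence of the calls on root transcripts, which was not tested. Both reference contrasts are given below without the term and with that limit. The part of root tissue in single results was not tested. The 2 states compared directly overlapped in mean root marker level, at 1.2, 1.24 and 1.48 in warm Col-0 and 2.13, 1.19 and 0.908 in spaQ on the log2 CPM scale.

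The SPA transcripts themselves differed between the states, though not all in one direction. SPA1 read 65.2, 61.1 and 67.2 CPM in warm Col-0 and 22.2, 21.5 and 19.6 CPM in spaQ (log2 fold change 1.61, SE 0.13, adjusted p = 2e-06). SPA2 was 27.8, 28.8 and 24.2 CPM against 11.4, 15.7 and 13.8 CPM (adjusted p = 0.0025) and SPA3 39.2, 36.5 and 31.3 against 22.7, 20.7 and 13.3 CPM (adjusted p = 0.002). SPA4 went the other way, with 14.2, 14.6 and 12 CPM in warm Col-0 and 40.5, 34.1 and 37.5 CPM in spaQ (log2 fold change -1.47, SE 0.17, adjusted p = 2.8e-05). For all 4 genes the libraries of the states did not overlap, as was so for 51.5% of all tested genes. Col-0 at 22 °C read 66.3, 62.1 and 71.4 CPM for SPA1, 20.5, 22.1 and 32.7 for SPA2, 65.4, 64 and 58.8 for SPA3 and 13.3, 17.6 and 18.1 for SPA4, so only SPA3 was called between the Col-0 groups (log2 fold change -0.81, adjusted p = 0.0019). None of the 4 was absent from spaQ, and a 3′ tag can come from a transcript whose mutation lies elsewhere, so these levels neither identify nor test the alleles. SPA3 and SPA4 also overlap genes on the other strand, AT3G15350 and AT1G53100.

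In the direct comparison 6518 genes were called, 36.5% of those tested. Of these, 3119 (17.5% of tested genes) were higher in warm Col-0 and 3399 (19.1%) were higher in spaQ, and 2995 had a log2 fold change of at least 1 in size. The libraries of the 2 states did not overlap for 9184 genes, 51.5% of those tested. These shares are the background for every list count below, on either side. Scaling by library totals in place of TMM moved the median of all genes by 0.30 towards warm Col-0, and put 75.7% of 8373 calls on that side against 47.9% in the main scaling. Small differences common to many genes therefore depend on the scaling, and gene groups whose median or balance of calls turns with it are given below. Counts of 3 or fewer on one side of a list moved by at most 2 members when a single library was left out, except in the iron and seed lists, whose values are given there. The strand setting of the counts is not given, so reads of a gene and of a partner on the other strand cannot be told apart; this applies to 140 of the 623 list members and other genes named by rule. Among the genes with values below they are GPX7, AT4G12490, HSP17.4, Hop3, HSP101, CLPB3, MBF1C, DREB2A, GolS1, STO, STH, BZS1, PIL5, PIF7, PHOT2, IAA13, XTH15, GASA6, CPD, BZR1, BES1, DELTA-TIP, CDKB2;1, RVE1, ELF3, CAB1, Lhca5, PORB, CRD1, OHP, OHP2, NPQ1, PSY, TT4, GSTF12, FAD8, AAO3, MYC2, FRK1, CYP81F4, GSTF2, DIN10, bHLH38, BHLH101, FER1, GLU1, RWP1 and SKOR. GLU1 and BHLH101 overlap each other, as do PSY and GSTF12. PHYE, BBX32, DWF1, TIM, FER2 and FER4 overlap a gene on their own strand.

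**Figure D1:**
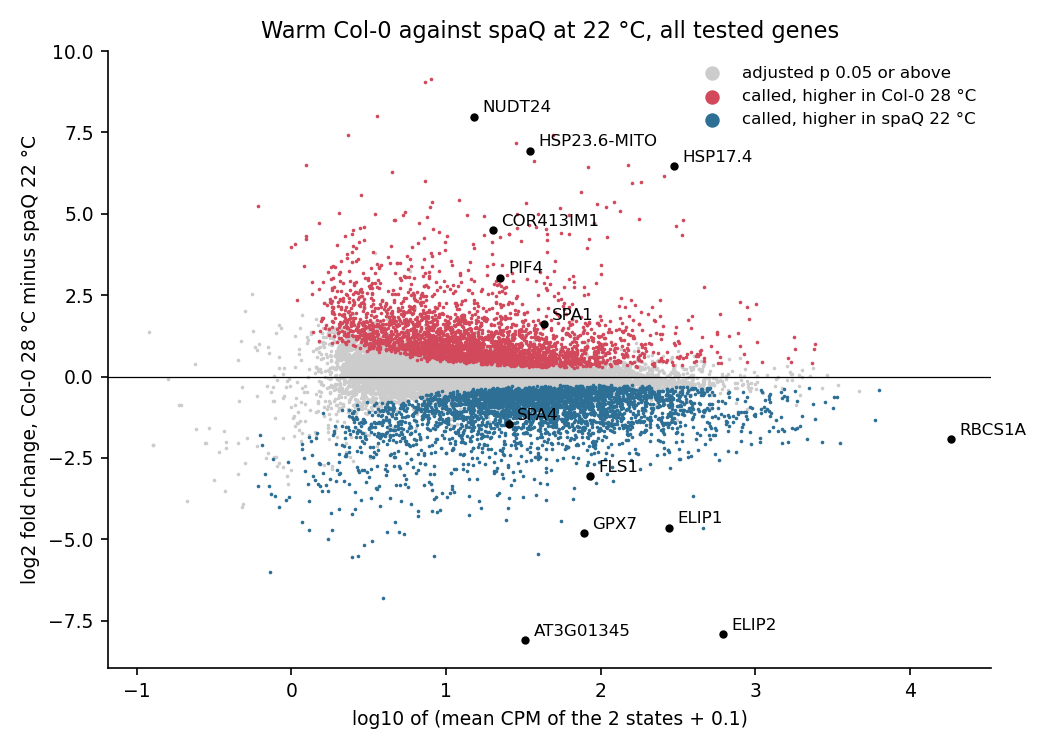
Log2 fold change of warm Col-0 minus spaQ at 22 °C against the mean level of each of the 17841 tested genes (log10 CPM); red and blue points are called genes and grey points are not. Heat shock genes such as HSP17.4 lie at the top, ELIP2 lies near the bottom at -7.92, and RBCS1A is the most abundant labelled gene.

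The genes that separated the states most were, on the warm side, 3 small heat shock protein genes and 2 others. Among called genes without overlap and with a mean of at least 10 CPM over the 6 libraries, the 5 highest were NUDT24, AT1G55230 and the small heat shock protein genes AT1G53540, ATHSP22.0 and HSP23.6-MITO. Each was at or under 3 counts in all spaQ libraries, so only bounds on the fold can be given, with the floor taken per library. NUDT24, a nudix hydrolase, read 18.6, 33.9 and 38 CPM in warm Col-0 replicates 1 to 3 and 0.168, 0 and 0 CPM in spaQ, at least 31.2-fold higher. HSP23.6-MITO, whose product is mitochondrial, was at least 71.9-fold higher, AT1G53540 at least 100.3-fold, ATHSP22.0 at least 57.9-fold and AT1G55230 at least 30.2-fold. All 5 were low in Col-0 at 22 °C as well, with group means from 0.0746 to 0.674 CPM.

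At the spaQ end the 5 were AT3G01345, ELIP2, AT3G23510, GPX7 and AT4G12490. AT3G01345 was at the floor in warm Col-0 and read 89.8, 44.1 and 60.5 CPM in spaQ, at least 139-fold higher, with 0.302, 1.12 and 0.671 CPM in Col-0 at 22 °C. GPX7, a glutathione peroxidase of the chloroplast, read 5.02, 6.17 and 5.07 CPM in warm Col-0 and 137, 137 and 178 CPM in spaQ (log2 fold change -4.81, SE 0.18, adjusted p = 1.1e-08). The mean of Col-0 at 22 °C was 10.5 CPM, above warm Col-0 and far below spaQ. AT4G12490 read 239, 1182 and 1220.1 CPM in spaQ, with replicate 1 far below the others, against 35, 25.2 and 42.6 CPM in warm Col-0. A lack of overlap was a condition for naming all 5. Reads of AT3G23510 and AT4G12490 may be shared with AT3G23530 and AT4G12500, whose 3′ ends hold identical stretches.

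**Figure D2:**
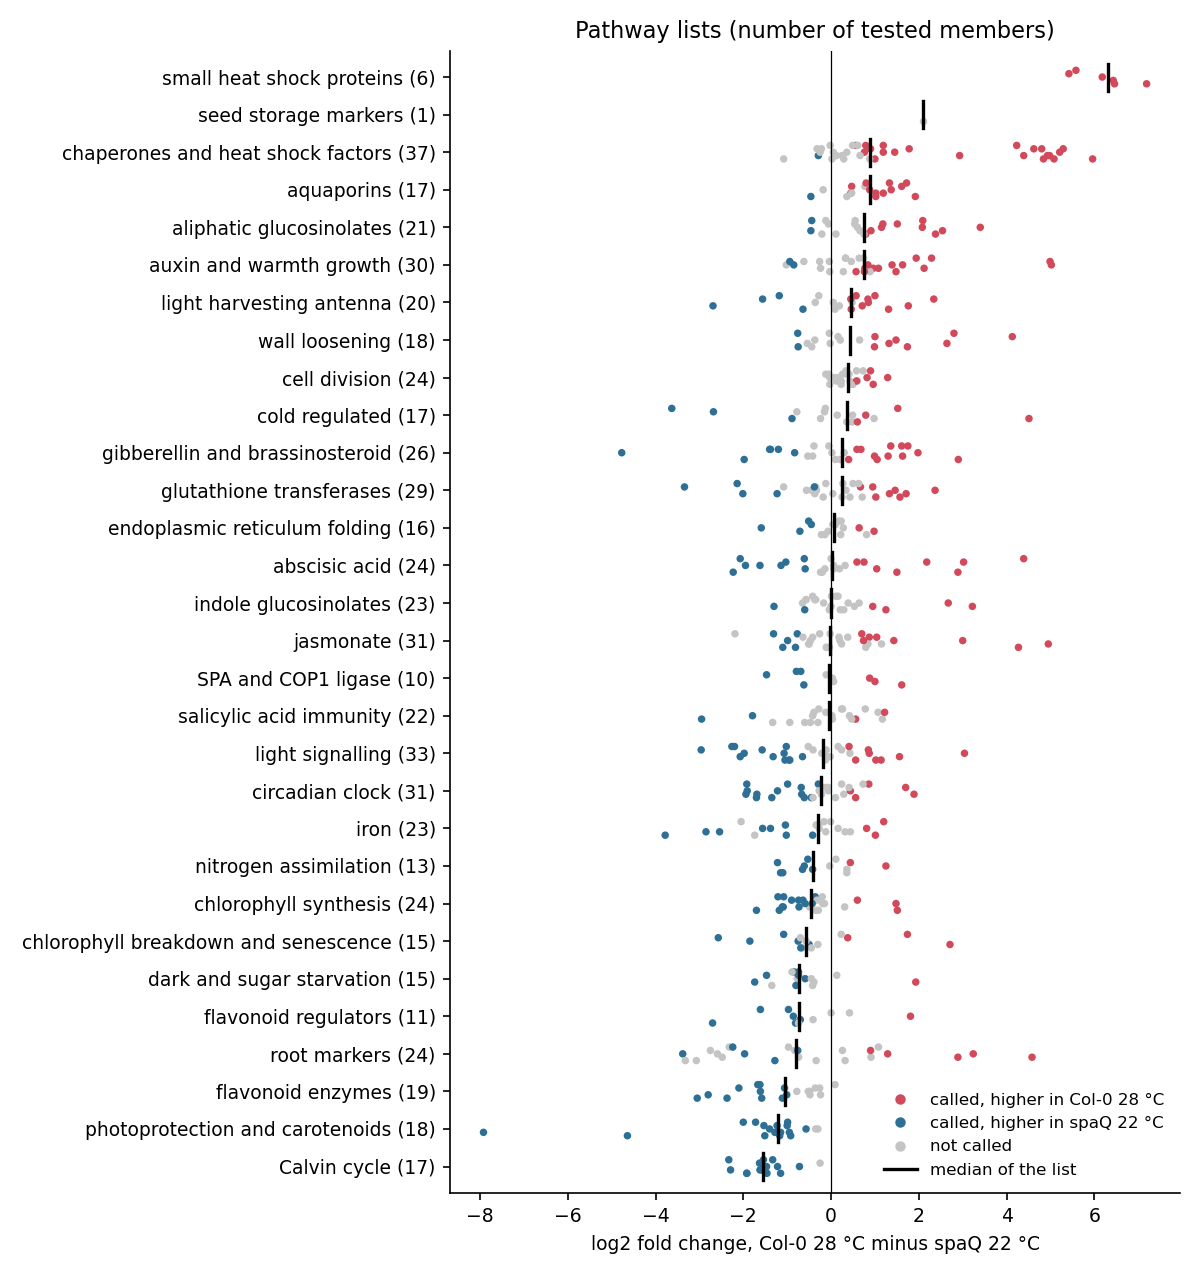
Log2 fold change of warm Col-0 minus spaQ for every tested member of 30 pathway lists, ordered by the list median (black bar); red and blue points are called. Small heat shock proteins lie highest with a median of 6.3 and the Calvin cycle lowest with a median of -1.54.

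Heat shock genes formed the sharpest group difference. Small heat shock proteins are chaperones that hold unfolding proteins in solution. Of 15 genes listed, 9 were left out because RefSeq does not carry the listed name at that locus, AT1G53540 and HSP23.6-MITO among them, and the 6 tested were all higher in warm Col-0, with log2 fold changes between 5.42 and 6.46 for the 4 measured above the floor in spaQ; ATHSP22.0 and 1 other have only bounds. With those at their bounds the list median was 6.02. HSP17.4, the most abundant, read 858, 123 and 792 CPM in warm Col-0 replicates 1 to 3 and 4.2, 13 and 4.17 CPM in spaQ (log2 fold change 6.46, SE 1.22, adjusted p = 0.0012). Replicate 2 of warm Col-0 was the low one. It lay above every spaQ library, as the rule that named the gene required. The summed level of the 6 genes was 298 to 1872 CPM in warm Col-0, 12.4 to 24.9 CPM in spaQ and 9.62 to 12.7 CPM in Col-0 at 22 °C. None of the 6 was called between spaQ and Col-0 at 22 °C.

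Among 37 tested chaperones and heat shock factors 21 were higher in warm Col-0 and 1, the chloroplast disaggregase CLPB3, was higher in spaQ, with a list median of 0.88 against 0.02 for all tested genes. The cytosolic chaperone HSP90.1 read 681, 393 and 909.9 CPM against 11.1, 46 and 17.1 CPM (log2 fold change 4.8, adjusted p = 7.5e-05). AT5G48570, an FKBP-type peptidyl-prolyl isomerase, read 449, 135 and 498 against 7.4, 3.45 and 5.42 CPM (5.96, SE 0.73, adjusted p = 4.5e-05), and the co-chaperone Hop3 204, 94.3 and 259.8 against 3.36, 8.43 and 3.34 CPM (5.29, adjusted p = 5.9e-05). In each of these the states were far apart and replicate 2 was the lowest of the warm libraries. The disaggregase HSP101 (5.08), the transcriptional coactivator MBF1C (4.84), the raffinose-family enzyme GolS1 (4.98) and the factor HSFA2, which sustains the heat response (4.93), were all higher in warm Col-0. Constitutive members were not on one side: HSC70-1, the most abundant, read 1466, 1317 and 1393 against 1443, 1521 and 1260.1 CPM (log2 fold change -0.02, 95% interval -0.24 to 0.2), and HSFA1 genes, which start the response, had log2 fold changes from -1.08 for HSFA1E, not called, to 0.79 for HSFA1D, called. DREB2A (adjusted p = 0.065) and HSF4 (adjusted p = 0.17) were not called between the states. Against Col-0 at 22 °C they stood at 3.2 and 3.23 in warm Col-0 and at 2.33 and 2.57 in spaQ, so these 2 stress-inducible factors were raised in each state.

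Folding genes of the endoplasmic reticulum were called at about the share of all tested genes. Of 16 tested, 2 were higher in warm Col-0, CRT3 (85.7, 106 and 89.4 against 41.7, 42.5 and 59.2 CPM, log2 fold change 0.98) and the stress sensor BZIP28 (22.6, 26.2 and 28 against 14.1, 19.9 and 15.8 CPM, 0.64), and 4 were higher in spaQ, among them the other unfolded-protein factor BZIP60 (88.8 against 146 CPM, -0.71), whose libraries overlapped. BZIP28 lost its call without warm Col-0 replicate 3 or without spaQ replicate 1. With library-total scaling the split became 9 to 0, without the libraries of spaQ at 28 °C in the fit it was 5 to 4, and the spaQ-side count was 1 without warm Col-0 replicate 1 or without spaQ replicate 2 or 3.

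Promoter sequences, the 250 bases before each annotated gene start in RefSeq's TAIR10.1 assembly, are shown for 2 genes of each extreme to let the heat and light elements be seen. Capitals mark every match on either strand to 4 motifs: a heat shock element made of GAA, TTC and GAA blocks with 2 free bases between neighbours; CACGTG, the G-box read by HY5 and PIF proteins; AAAATATCT, the evening element of the clock; and CCGAC, the core of the cold-responsive element. HSP17.4 and ELIP1 lie on the minus strand of chromosome 3 and ATHSP22.0 and ELIP2 on the plus strand of chromosome 4, and each sequence is read in the direction of its gene.
HSP17.4: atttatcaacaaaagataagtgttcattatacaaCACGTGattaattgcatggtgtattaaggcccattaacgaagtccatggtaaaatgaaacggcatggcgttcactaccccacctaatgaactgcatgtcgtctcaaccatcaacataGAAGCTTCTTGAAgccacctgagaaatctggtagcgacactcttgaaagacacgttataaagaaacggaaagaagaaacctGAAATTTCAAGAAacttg
ATHSP22.0: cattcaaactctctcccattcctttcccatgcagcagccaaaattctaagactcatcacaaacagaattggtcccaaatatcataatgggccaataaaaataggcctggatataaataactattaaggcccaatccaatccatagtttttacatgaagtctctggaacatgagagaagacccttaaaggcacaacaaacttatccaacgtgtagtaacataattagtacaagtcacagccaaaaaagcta
ELIP1: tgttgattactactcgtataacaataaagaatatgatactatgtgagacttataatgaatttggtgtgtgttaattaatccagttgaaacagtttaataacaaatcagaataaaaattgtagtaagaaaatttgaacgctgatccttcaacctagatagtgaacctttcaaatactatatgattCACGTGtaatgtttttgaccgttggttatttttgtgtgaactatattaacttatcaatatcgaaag
ELIP2: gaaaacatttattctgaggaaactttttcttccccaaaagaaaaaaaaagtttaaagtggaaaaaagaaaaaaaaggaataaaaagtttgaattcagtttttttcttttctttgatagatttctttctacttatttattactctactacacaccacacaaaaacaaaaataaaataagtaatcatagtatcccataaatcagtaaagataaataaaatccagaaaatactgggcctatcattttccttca
HSP17.4 held the heat element at 2 places, starting 99 and 18 bases before the gene, and a G-box 216 bases before it. ATHSP22.0 held none of the 4 motifs in this window. The heat element lay in 1 of 6 small heat shock promoters (16.7%) and 4 of 37 chaperone and heat shock factor promoters (10.8%), against 106 of 27443 protein-coding promoters (0.386%). ELIP1 held 1 G-box, 66 bases before the gene, and ELIP2 none; the G-box lay in 3 of 18 photoprotection promoters (16.7%) and 5 of 19 flavonoid enzyme promoters (26.3%), against 6.49% of all. In the heat lists the G-box lay in 1 of 6 small heat shock promoters (16.7%) and 6 of 37 chaperone and heat shock factor promoters (16.2%). These shares were near that of the photoprotection list and below that of the flavonoid enzymes. These matches describe letters in a window and not sites of binding.

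The genes of the COP1 and SPA ligase itself gave 3 members higher in warm Col-0 and 4 higher in spaQ of 10 tested, SPA1 to SPA4 among them. With library totals the split was 4 to 3 and the median turned from -0.04 to 0.26. COP1, the ligase subunit itself, was at 31.9 and 55 CPM (mean, n = 3 each; log2 fold change -0.79, adjusted p = 1e-04), and its partners DET1 (-0.62) and FUS9 (-0.69), both of the COP and DET group of light repressors, were likewise higher in spaQ. The scaffold gene CUL4, most abundant of the list, read 70.2, 73 and 67.7 CPM against 71.3, 81.6 and 74.2 CPM with a log2 fold change of -0.11 (95% interval -0.32 to 0.11), and its libraries overlapped.

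Light-signalling genes lay on both sides. Of 33 tested, 8 were higher in warm Col-0 and 13 in spaQ. Of the 5 tested PIF genes, for transcription factors that promote elongation, 4 were on the warm side. PIF4, the central factor of thermomorphogenesis, read 44.6, 41.9 and 32.9 CPM in warm Col-0 and 5.04, 4.21 and 5 CPM in spaQ (log2 fold change 3.04, SE 0.24, adjusted p = 1.3e-06). Col-0 at 22 °C lay between, at 24.1, 20.1 and 21 CPM. The reference contrasts put warm Col-0 above it by 0.87 (adjusted p = 0.0033) and spaQ below it by a log2 fold change of -2.17 (adjusted p = 3.6e-05). PIF3 was 46.8, 56 and 38.4 CPM against 14.1, 15.3 and 18.8 CPM (1.56, adjusted p = 3e-05), with Col-0 at 22 °C near spaQ at 12.4 CPM. PIL5, also known as PIF1 (1.02), and PIL6, also known as PIF5 (0.85), were called in the same direction, and PIF7 (-0.52, adjusted p = 0.063) was not called.

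Several other light-signalling factors, promoters and repressors of light responses among them, were higher in spaQ. HY5, the bZIP factor that COP1 and SPA proteins remove, had 26.5 CPM in warm Col-0 and 50.9 in spaQ (means; log2 fold change -0.94, adjusted p = 0.00015), with warm Col-0 at the level of Col-0 at 22 °C, 26.5 CPM. Its homologue HYH read 45.9, 39.3 and 49.4 against 195, 192 and 181 CPM (-2.07, adjusted p = 1.3e-07). RUP1, a repressor of the UV-B receptor UVR8, read 4.93, 4.37 and 4.49 CPM in warm Col-0 and 37.5, 34.1 and 36.7 CPM in spaQ (-2.96, SE 0.19, adjusted p = 2.6e-07), and its partner RUP2 differed by -2.2. Warm libraries of all these genes lay wholly below those of spaQ, and 51.5% of all tested genes had no overlap in either direction. B-box factors, which act beside HY5, included BBX29 (-2.26), BBX30 (-0.96), BBX31 (-1.32), BBX32 (-1.98), BZS1 (-1.57), LZF1 (-1.05) and STH (-1.07) on the spaQ side and BBX21 (0.41) on the warm side. HFR1, a bHLH factor also removed by the ligase, was not called (adjusted p = 0.49) and was called above Col-0 at 22 °C in warm Col-0 (1.5) and in spaQ (1.71). STO, the most abundant member, was not called (217, 203 and 173 against 231, 205 and 203 CPM, adjusted p = 0.55).

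Photoreceptor genes split as well. PHYA, for the far-red receptor that accumulates in darkness, stood at 122 CPM in warm Col-0 and 55.3 in spaQ (1.14, adjusted p = 1.8e-05) and PHOT1, for a blue-light receptor of phototropism, at 133 and 72.3 CPM (0.87, adjusted p = 0.00019). PHYB (-0.65, adjusted p = 0.012) and PHYE (-1.02, adjusted p = 0.00028) were higher in spaQ. CRY1, CRY2, PHOT2 and UVR8 were not called. Under library-total scaling the median of the light-signalling list changed sign, from -0.18 to 0.11, with 10 and 12 calls.

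**Figure D3:**
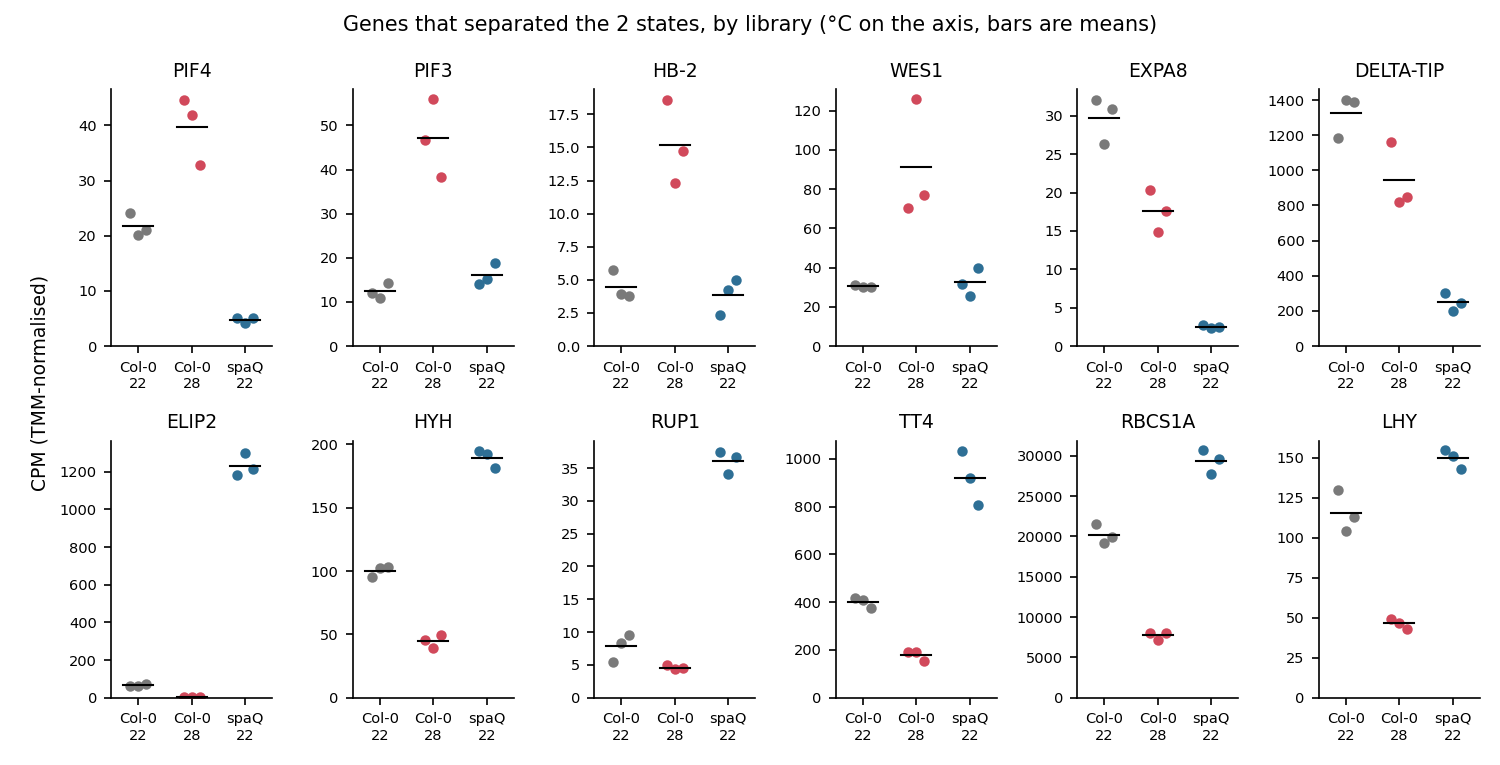
CPM of 12 genes in each library of Col-0 at 22 °C (grey), warm Col-0 (red) and spaQ at 22 °C (blue); bars are group means of 3 libraries and each axis starts at 0. PIF4 and EXPA8 are low in spaQ, and ELIP2, HYH and TT4 are low in warm Col-0. The genes were picked because they separated the states, so the lack of overlap between red and blue points follows from that choice. Of all tested genes, 51.5% did not overlap.

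Elongation genes followed the PIF side. Of 30 tested auxin and warm-growth genes 14 were higher in warm Col-0 and 2 in spaQ (median 0.75). HB-2, a homeodomain factor of shade and warmth responses, read 18.6, 12.3 and 14.7 against 2.35, 4.21 and 5 CPM (2.12, adjusted p = 9.8e-05). WES1, an auxin-conjugating GH3 enzyme, read 70.6, 126 and 77 CPM in warm Col-0 and 31.6, 25.7 and 40 CPM in spaQ (1.48, SE 0.35, adjusted p = 0.005), and its Col-0 level at 22 °C, 30.4 CPM, was that of spaQ. IAA13, an auxin response repressor, showed the other arrangement, with 38.7, 47.3 and 35.6 against 16.1, 17.2 and 12.1 CPM (1.39, adjusted p = 7e-05) and 32.4 CPM in Col-0 at 22 °C, nearer to warm Col-0. IAA7, the most abundant of the list, read 269.6, 268 and 197 against 105, 107 and 167 CPM (0.96, adjusted p = 0.0013). Low-count members were IAA29 (3.83 against 0.056 CPM), SAUR22 (6.52 against 0.184) and SAUR24 (7.46 against 1.5), all early auxin genes. IAA29 and SAUR22 were at the floor in spaQ, so their log2 fold changes have only bounds, at least 1.99 and 2.75. A gene at the floor in spaQ can be tested only through libraries where it is higher, so these 2 add nothing to the direction of the list. With both at their bounds the list median was 0.75. The pair on the spaQ side was IAA14 (-0.94) and the auxin-conjugating gene GH3.17 (-0.85). YUC8, for the auxin synthesis enzyme under PIF4, was not called (5.26 against 4.36 CPM, adjusted p = 0.43). A further 11 members, among them YUC2, SAUR19 and PRE1, had too few counts to test.

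Expansins and xyloglucan enzymes, which loosen the wall, gave 8 calls for warm Col-0 and 2 for spaQ of 18. EXPA8 read 20.3, 14.9 and 17.6 CPM in warm Col-0 and 2.69, 2.3 and 2.5 CPM in spaQ (2.8, SE 0.23, adjusted p = 1.9e-06). Col-0 at 22 °C was higher than both, at 32, 26.3 and 30.9 CPM. XTH15 read 68.4, 31.1 and 21.2 against 9.25, 3.45 and 5 CPM (2.64, adjusted p = 0.0058), while EXPA1 (-0.76) and EXPA10 (-0.75) were higher in spaQ and XTH24, the most abundant, overlapped (572, 791 and 575 against 599.9, 808 and 1093 CPM, adjusted p = 0.25). Against Col-0 at 22 °C, 5 members were called higher and 10 lower in spaQ, and 4 higher and 8 lower in warm Col-0. With library-total scaling none was higher in spaQ.

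Gibberellin and brassinosteroid genes gave 12 calls for warm Col-0 and 6 for spaQ of 26. GASA6, a gibberellin-responsive peptide gene, read 141, 133 and 79.7 against 16, 13 and 18.3 CPM (2.9, adjusted p = 2.5e-05) and GASA4 313, 231 and 207 against 88.6, 71.3 and 61.7 CPM (1.75, adjusted p = 5e-05). For both, warm Col-0 was close to Col-0 at 22 °C (150.4 and 291 CPM) and was not called against it, whereas spaQ was called lower (-3.25 and -1.97). The brassinosteroid synthesis genes CPD (1.63), DWF4 (1.05) and DWF1 (0.99) and the response factors BES1 (1.36) and BZR1 (0.59) were higher in warm Col-0. So were 3 of 4 tested genes of DELLA proteins, which repress gibberellin responses: GAI (1.61), RGL1 (1.3) and RGL2 (1.98). On the spaQ side were the inactivating gibberellin oxidases GA2OX2 (-1.4) and GA2OX8 (-1.98), the receptor gene GID1B (-0.83) and the activating oxidase GA3OX2 (0.263 against 9.53 CPM). GASA1, the most abundant, was called by a narrow margin (571, 333 and 408 against 1151, 980.2 and 892 CPM, -1.2, adjusted p = 0.039), and lost the call under library totals and without any single library except warm Col-0 replicate 1.

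Water channels made one of the more uniform groups, with 12 of 17 higher in warm Col-0 and 1, PIP1A, higher in spaQ (median 0.88). The PIP1A call was lost under library totals, with the replicate block and without any single library of the pair. The tonoplast channel gene DELTA-TIP read 1159, 822 and 847 CPM against 302, 201 and 245 CPM (1.92, SE 0.35, adjusted p = 0.00088), and PIP1;5 of the plasma membrane read 191, 152 and 125 against 54.3, 42.1 and 44.2 CPM (1.72, adjusted p = 0.0012). In the most abundant, PIP1B, the difference was small, 1079.7, 1036 and 934 against 798, 690.5 and 745 CPM (0.45, adjusted p = 0.0067). The summed list was 5291 to 6436 CPM in warm Col-0, 2762 to 3532 in spaQ and 6895 to 7232 in Col-0 at 22 °C, with spaQ the lowest. Cell division genes had a median of 0.38 but mostly fell short of the threshold. Of 24 tested, 5 were called (20.8%), all higher in warm Col-0. This share was below the 36.5% of all tested genes and near the 17.5% called on the warm side. The 5 were led by the G1 cyclin CYCD3;1 (17.8, 20.6 and 20.4 against 6.89, 6.51 and 11.3 CPM, 1.29, adjusted p = 0.00078) and the replication factor MCM5 (0.82, adjusted p = 0.0068), with CYCB2;3, CDKB2;1 and CDC20.1. CYCD3;1 overlaps AT4G34150 on its own strand. Library-total scaling raised this count to 13, and leaving the libraries of spaQ at 28 °C out of the fit raised it to 8.

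Photosynthesis genes went in different directions by function. Calvin cycle genes, for carbon fixation, were higher in spaQ in 16 of 17 tested cases and never in warm Col-0, with a median log2 fold change of -1.54; the other, TIM, had -0.25 (adjusted p = 0.091). RBCS1A, for the main small subunit of Rubisco and the most abundant gene of the list, read 8074, 7171 and 8009 CPM in warm Col-0 and 30688, 27749.9 and 29574 CPM in spaQ (-1.92, SE 0.16, adjusted p = 2.3e-06). CP12-2, a redox regulator of the cycle, read 119.6, 141 and 106 against 620.4, 618 and 604 CPM (-2.33, adjusted p = 8.1e-08). Every warm library was below every spaQ library for all 17, while 51.5% of all tested genes had no overlap in either direction. Col-0 at 22 °C lay between for RBCS1A, at 21492, 19217 and 19921 CPM, and for the list as a whole: 16 of 17 were called lower in warm Col-0 than in it and 9 higher in spaQ, with none called the other way. RBCS1B read 229, 185 and 261 against 1200.3, 961 and 1150.5 CPM (-2.29, adjusted p = 3.7e-06), and shares 3′ sequence with AT5G38410 and AT5G38420.

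The antenna proteins, which harvest light for both photosystems, did not share that direction. Of 20 tested, 10 were higher in warm Col-0 and 4 in spaQ (median 0.45). The spaQ-side share was near the 19.1% of all tested genes. LHB1B1 read 433, 303 and 476 CPM against 72, 77 and 90.9 CPM (2.34, adjusted p = 0.00089), but Col-0 at 22 °C far exceeded both states, at 1821, 1742 and 1647 CPM. CAB1, the most abundant, overlapped between states (2346, 2122 and 2685 against 3315, 2667 and 3222 CPM, -0.36, adjusted p = 0.18) and was 6386 CPM in Col-0 at 22 °C. Against that reference 14 antenna genes were called lower in warm Col-0 and 15 lower in spaQ. The exceptions on the spaQ side were the minor antenna gene LHCB4.3 (17.9, 25.9 and 29.5 against 144, 166 and 163 CPM, -2.69, adjusted p = 2.6e-07) and the rare photosystem I members Lhca5 (-1.56) and Lhca6 (-1.18), with CAB2 (-0.64). Values of LHB1B1 and CAB1 are uncertain one by one, because stretches of at least 50 bases near their 3′ ends are identical with AT2G34420 and with AT1G29910 and AT1G29920.

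Chlorophyll synthesis leaned to spaQ in the direct comparison, with 13 of 24 called there and 3 in warm Col-0. Against Col-0 at 22 °C both states were mostly lower. In warm Col-0 21 members were called lower and 2 higher (median -0.95), and in spaQ 12 lower and 1 higher (median -0.4). HEMA1, the entry enzyme, read 73.4, 92.2 and 106 against 309, 286 and 286 CPM (-1.7, SE 0.17, adjusted p = 7.6e-06), and spaQ stood near the 352 CPM of Col-0 at 22 °C. PORB, for the light-dependent reductase step, ran against the list with 211, 224 and 216 CPM in warm Col-0 and 80.2, 72.4 and 75.9 CPM in spaQ (1.51, adjusted p = 6.7e-07). The chloroplast development factors GPRI1, also known as GLK1 (1.48, adjusted p = 5.3e-06), and GLK2 (0.6, adjusted p = 0.032) were the other 2 members higher in warm Col-0. CRD1, the most abundant, was not called (932, 843 and 857 against 1134, 941 and 939.9 CPM, adjusted p = 0.31).

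Photoprotection and carotenoid genes were higher in spaQ in 16 of 18 tested cases and in none in warm Col-0 (median -1.2). ELIP2, an early light-induced protein of the thylakoid, gave the largest difference of the list, with 5.76, 4.62 and 4.61 CPM in warm Col-0 and 1182, 1299.7 and 1217 CPM in spaQ (log2 fold change -7.92, SE 0.16, adjusted p = 9.4e-12). It was displaced from Col-0 at 22 °C (62.7, 63.5 and 73.6 CPM) in both directions, by -3.71 in warm Col-0 (adjusted p = 3e-08) and by 4.21 in spaQ (adjusted p = 2.2e-09). ELIP1 differed by -4.64 (SE 0.27, adjusted p = 1.5e-07), at 24.9, 11 and 26.7 against 547, 615 and 451 CPM, and here warm Col-0 overlapped the 28.6, 33 and 23.5 CPM of the reference. NPQ4, the PsbS protein of energy dissipation, read 918, 867 and 844 against 2232, 1850 and 2089.9 CPM (-1.23, adjusted p = 1.8e-05). The violaxanthin de-epoxidase NPQ1 (-2.0), the one-helix proteins OHP (-1.4) and OHP2 (-1.53), and PSY, the entry enzyme of carotenoid synthesis (-1.0), had the same direction.

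**Figure D4:**
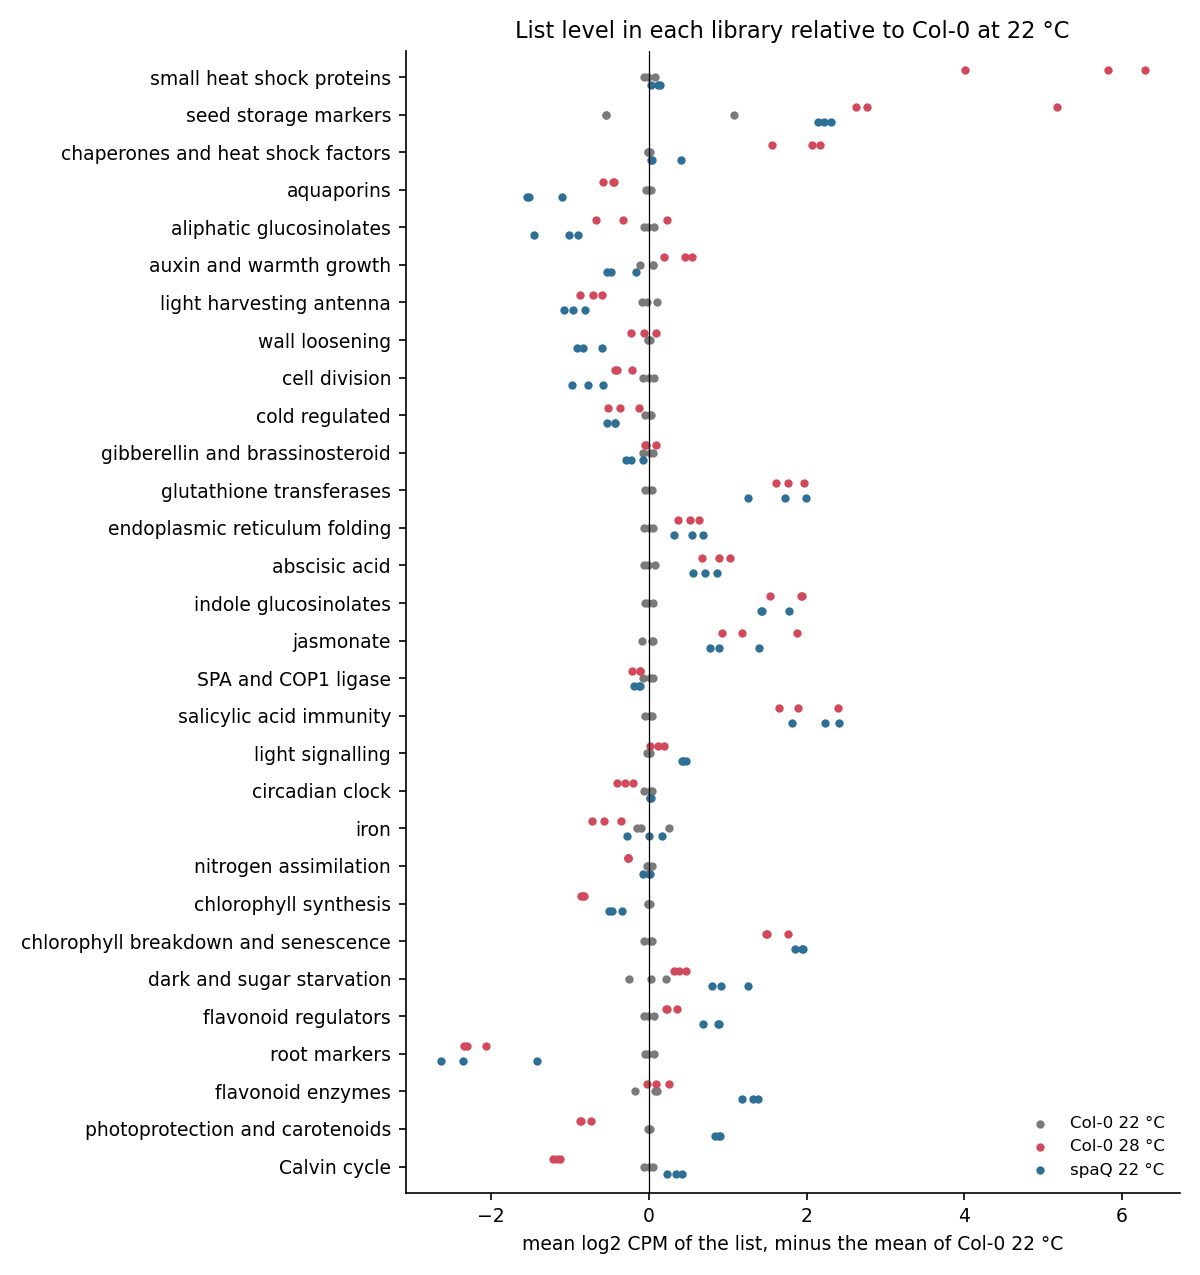
Mean log2 CPM of each pathway list in each library, minus the mean of the 3 Col-0 libraries at 22 °C, for Col-0 at 22 °C (grey), warm Col-0 (red) and spaQ (blue). Photoprotection, Calvin cycle and small heat shock lists separate red from blue, whereas glutathione transferase, indole glucosinolate and salicylic acid lists have red and blue together, to the right of the reference.

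Flavonoid synthesis was a spaQ-side group: 11 of 19 enzymes were called higher in spaQ and none in warm Col-0 (median -1.06). TT4, chalcone synthase and the first committed enzyme, read 193, 189.9 and 152 CPM in warm Col-0 and 1032, 918 and 806 CPM in spaQ (-2.37, adjusted p = 1e-05). FLS1, the flavonol branch enzyme, read 16.6, 15.9 and 22.2 against 167, 162 and 128 CPM (-3.05, SE 0.27, adjusted p = 2.9e-06), and TT5, chalcone isomerase, 31.8, 29.3 and 28.8 against 227, 206 and 192 CPM (-2.8, adjusted p = 3.6e-08). In all 3 the reference lay between the states (401, 70 and 61 CPM). The late anthocyanin enzymes did not separate the states at this threshold: DFR (-0.24, 95% interval -0.96 to 0.48), LDOX (-0.49, -1.01 to 0.03), UF3GT (-0.36, -1.23 to 0.5) and the transporter-like GSTF12 (-0.48, -1.1 to 0.14). Each of these 4 was called higher than Col-0 at 22 °C in warm Col-0 (by 1.4, 1.44, 1.64 and 1.54) and in spaQ (by 1.64, 1.93, 2.01 and 2.02). C4H, the most abundant enzyme, overlapped between the states (443, 503 and 509 against 497, 772 and 819.8 CPM, adjusted p = 0.12).

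Regulators of the pathway gave 1 call for warm Col-0 and 6 for spaQ of 11. MYB12, activator of the flavonol genes, had 1.84 CPM in warm Col-0 and 12.5 in spaQ (-2.7, adjusted p = 0.00079). PAP1, a MYB activator of anthocyanin genes, was the one on the warm side, at 14.2, 21.1 and 14.3 against 4.88, 3.45 and 5.42 CPM (1.81, adjusted p = 0.00028), while its bHLH partner TT8 (-1.61, adjusted p = 0.0048) was on the spaQ side. LBD38, a repressor, read 45.6, 38.8 and 47.2 against 91.8, 73.6 and 92.6 CPM (-0.97, adjusted p = 0.00053), and LBD37, the most abundant, overlapped (log2 fold change 0.00, 95% interval -0.26 to 0.25). Without spaQ replicate 1 the count of regulators higher in spaQ was 4.

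Clock genes gave 5 calls for warm Col-0 and 13 for spaQ of 31. The warm-side share was near the 17.5% of all tested genes, and the spaQ-side share was above their 19.1%. RVE1, a morning MYB factor, read 19.7, 18.8 and 18.7 CPM in warm Col-0 and 75.3, 69.4 and 72.1 CPM in spaQ (-1.92, SE 0.17, adjusted p = 3.5e-06). PRR5, a pseudo-response regulator of the later day, read 5.86, 3.6 and 5.99 against 20.7, 21.1 and 18.8 CPM (-1.91, adjusted p = 1.3e-05). LHY (49.3, 47 and 43 against 155, 151 and 143 CPM, -1.69), CCA1 (-0.61), TOC1 (-0.99), ELF3 (-0.67) and ELF4 (-1.22) shared the direction. The 5 on the warm side were the clock coactivator genes AT5G64170 (0.44) and AT3G12320 (0.86), TCP11 (1.7), CCR1 (0.56) and CDF1, and 13 members were not called. CDF1, a repressor of flowering genes, had means of 20.6 against 5.44 CPM (1.89, adjusted p = 2.1e-05). GRP7, the most abundant, overlapped (959, 819 and 1020.5 against 794, 748 and 831 CPM, adjusted p = 0.13). Under library-total scaling the list gave 8 and 9 calls and its median turned from -0.24 to 0.06. The promoter of PRR5 is printed because it held both an evening element, 187 bases before the gene, and a cold element core at 244 bases.
PRR5: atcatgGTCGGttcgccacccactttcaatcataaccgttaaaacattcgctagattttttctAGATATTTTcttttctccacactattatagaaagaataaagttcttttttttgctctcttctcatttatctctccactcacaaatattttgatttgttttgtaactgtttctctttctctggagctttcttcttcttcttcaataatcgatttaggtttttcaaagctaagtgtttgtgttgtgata
The evening element was present in 9 of 31 clock promoters (29.0%) against 2.36% of all promoters, and the G-box in 10 of 31 (32.3%). The cold element core was present in 5 of 31 clock promoters (16.1%), near the 12% of all promoters, and in 6 of 17 cold-regulated promoters (35.3%).

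Of 17 cold-regulated genes 4 were higher in warm Col-0 and 3 in spaQ, a share near that of all tested genes. COR413IM1, for a chloroplast inner membrane protein, read 34, 37.8 and 43.4 CPM in warm Col-0 and 1.35, 2.3 and 1.67 CPM in spaQ (4.51, SE 0.42, adjusted p = 4.7e-06). FAD8, a plastid desaturase whose protein is lost in the warmth, lay on the other side at 6.6, 4.11 and 5.64 against 68.1, 74 and 70.1 CPM (-3.63, adjusted p = 7.2e-08), with the reference between at 23.9 CPM. FAD8 shares 3′ sequence with AT3G11170. COR413-PM1, the most abundant, overlapped between the states (log2 fold change -0.15, 95% interval -0.63 to 0.33) and below the reference in each. The count on the warm side was 2 without spaQ replicate 2 and 8 with library totals.

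Abscisic acid genes gave 8 calls on each side of 24. Warm Col-0 was higher in the synthesis genes NCED3 (2.89) and NCED4 (1.04) and in the phosphatase genes HAI1 (10.3, 21.3 and 9.33 against 1.18, 1.92 and 2.08 CPM, 3.02, adjusted p = 0.00087), HAI2 (at least 4.73-fold) and ABI2 (1.5), which act as negative regulators. spaQ was higher in the hydroxylases that break the hormone down, CYP707A1 (-2.07), CYP707A2 (21.3, 23.1 and 17.9 against 97.4, 73.6 and 119 CPM, -2.23, adjusted p = 1.2e-05) and CYP707A4 (-1.95), and in the receptors PYL5 (-0.59) and PYL6 (-1.62). AAO3, for the last step of synthesis (-1.03), was also higher in spaQ, so synthesis genes lay on both sides. RD22, a dehydration gene, read 242, 229 and 174 against 46.9, 49 and 46.3 CPM (2.18, adjusted p = 3.6e-06), with warm Col-0 level with the reference at 213 CPM. PYL4, the most abundant, was not called (adjusted p = 0.25). Without spaQ replicate 1 the warm-side count fell from 8 to 5. With library totals the split was 9 to 7, and the median went from 0.03 to 0.33.

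Jasmonate genes gave 8 calls for warm Col-0 and 5 for spaQ of 31, together 41.9%, a share near the 36.5% of all tested genes. VSP2, a vegetative storage protein and output of the pathway, read 12.8, 49.3 and 17.7 CPM in warm Col-0 and 1.35, 0 and 0.417 CPM in spaQ (4.95, SE 0.8, adjusted p = 0.00039), with replicate 2 the highest warm library. CORI3, a cystine lyase gene, read 119, 118 and 93.3 against 9.08, 17.6 and 16.7 CPM (3.0, adjusted p = 8.1e-05). MYC2, the main transcription factor, was higher in warm Col-0 (0.74, adjusted p = 0.019), whereas the repressors JAZ3 (-1.1) and TIFY7, also known as JAZ9 (-1.31), were higher in spaQ. LOX2, most abundant, overlapped (293, 529.8 and 386 against 181, 339.9 and 181 CPM, adjusted p = 0.1). The spaQ-side count fell to 2 without spaQ replicate 2. With library totals the split was 12 to 2 and the median turned from -0.02 to 0.28.

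**Figure D5:**
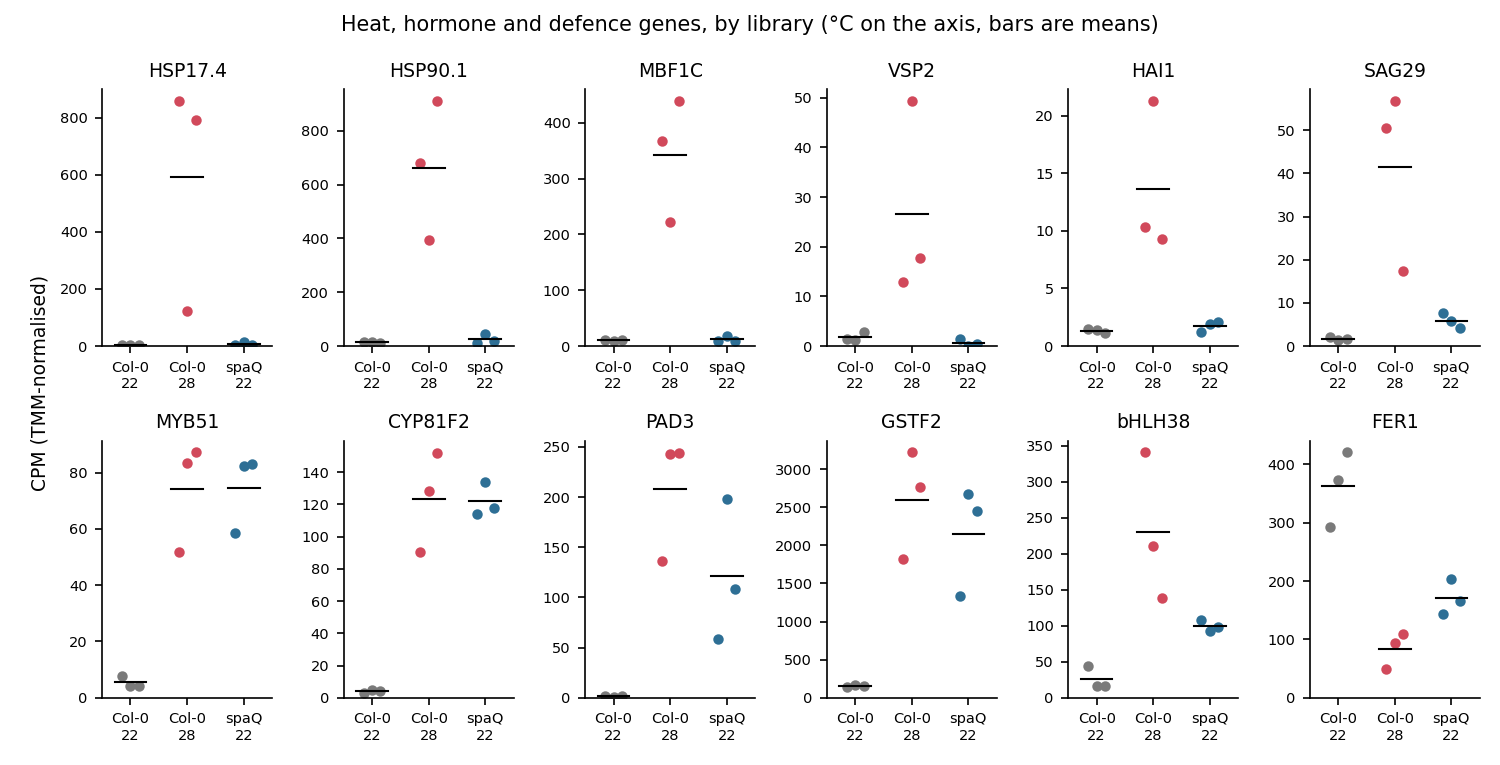
CPM of 12 heat, hormone, defence and iron genes in each library of Col-0 at 22 °C (grey), warm Col-0 (red) and spaQ (blue); bars are group means of 3 libraries and each axis starts at 0. HSP17.4, HSP90.1 and MBF1C are high only in the red points among the groups shown, whereas MYB51, CYP81F2, PAD3 and GSTF2 are high in red and blue alike.

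Immunity genes separated the states in few cases, and most stood above the reference in each. Among 22 tested salicylic acid and immunity genes 2 were higher in warm Col-0 and 2 in spaQ, a smaller share of the list than the 36.5% of all tested genes. FRK1, a receptor kinase gene induced by microbial patterns, read 11, 7.96 and 10.5 CPM in warm Col-0 and 60.5, 88.5 and 85.5 CPM in spaQ (-2.95, SE 0.29, adjusted p = 7.3e-06), and WRKY18, a transcription factor, 18.7, 23.4 and 25.6 against 69.3, 83.9 and 81.3 CPM (-1.79, adjusted p = 1.9e-06). The pair on the warm side was EDS1 (0.56) and GRX480 (1.22). PAD3, last enzyme of camalexin synthesis and the most abundant, read 136, 243 and 244 against 58.5, 198 and 108 CPM (log2 fold change 0.78, 95% interval -0.62 to 2.19), overlapping, with 1.81, 0.839 and 2.24 CPM in Col-0 at 22 °C. Against that reference 15 of the 22 were called higher in warm Col-0 and 17 higher in spaQ, with none called lower in either. The classic marker PR1 had too few counts to test. Leaving out single libraries moved the warm-side count between 0 (without warm Col-0 replicate 2 or 3 or spaQ replicate 1) and 4 (without spaQ replicate 3). With library totals the split was 4 to 2 and the median turned from -0.05 to 0.25.

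Indole glucosinolate genes gave 4 calls for warm Col-0 and 2 for spaQ of 23, with a median of 0.01. The share called, 26.1%, was below the 36.5% of all tested genes. MYB51, an activator of the branch, read 51.8, 83.5 and 87.2 CPM in warm Col-0, 58.5, 82.4 and 83 CPM in spaQ and 7.84, 4.19 and 4.25 CPM in the reference. CYP81F2, which modifies indole glucosinolates for antifungal defence, read 90.4, 128 and 152 CPM in warm Col-0, 114, 134 and 118 CPM in spaQ and 2.71, 5.03 and 4.47 CPM in the reference. For both genes the 2 states overlapped and lay far above the reference. Between the states their log2 fold changes were 0.00 (95% interval -0.92 to 0.91) and 0.01 (-0.74 to 0.77). The called members were CYP81F4 (72.2, 68.3 and 77.6 against 6.39, 13.4 and 4.17 CPM, 3.22, adjusted p = 2.3e-05), the myrosinases TGG2 (63, 107 and 63.7 against 11.4, 9.96 and 15.4 CPM, 2.67, adjusted p = 9.3e-05) and TGG1 (0.95) and the activator MYB34 (1.25) for warm Col-0, and IGMT2 (-1.3) and PEN2 (-0.6) for spaQ. GSTF9, the most abundant, was not called (1126, 1407 and 1437 against 1606, 1774 and 1663 CPM, adjusted p = 0.33). Without the libraries of spaQ at 28 °C in the fit the list gave 7 and 4 calls. Against Col-0 at 22 °C the list medians were 1.78 for warm Col-0 and 1.62 for spaQ.

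The aliphatic branch behaved otherwise: 10 of 21 were higher in warm Col-0 and 2 in spaQ. CYP79F1, which enters methionine-derived chains into the pathway, read 61.6, 14.6 and 24.5 against 4.37, 2.3 and 2.08 CPM (3.4, SE 0.52, adjusted p = 0.00026), and CYP83A1, the next step, 117, 42.1 and 62.8 against 21.2, 18.4 and 11.7 CPM (2.09, adjusted p = 0.00025). Warm libraries were spread, replicate 1 highest. All were above spaQ, which the rule that named these 2 genes required. The activators MYB28 (0.79) and MYB29 (2.54) had the same direction. Against Col-0 at 22 °C the list was near the reference in warm Col-0 (median -0.25) and below it in spaQ (-1.1, 14 called lower). IIL1, the most abundant, was slightly higher in spaQ (118, 112 and 120.3 against 158, 156 and 162 CPM, -0.44, adjusted p = 0.003), and with library totals no member was.

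Glutathione transferases, detoxifying enzymes, gave 8 calls for warm Col-0 and 5 for spaQ of 29, together 44.8%, against 36.5% of all tested genes. GSTU13 read 69.1, 124 and 87.3 against 20.8, 15.7 and 15.8 CPM (2.37, adjusted p = 0.00013) and GSTU9 3.07, 7.19 and 4.49 against 11.8, 93.5 and 38.4 CPM (-3.34, adjusted p = 0.00074), with spaQ widely spread in the latter. GSTF2, the most abundant, had 1817, 3217 and 2758 CPM in warm Col-0, 1329.8, 2670.3 and 2449 CPM in spaQ and 144, 164 and 151 CPM in the reference; the states overlapped (0.27, 95% interval -0.86 to 1.4). The list summed to 8052 to 11084 CPM in warm Col-0 and 7660.3 to 13066 CPM in spaQ, against 2462 to 2591 CPM in Col-0 at 22 °C. Without warm Col-0 replicate 1 the calls were 5 and 3.

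Senescence and chlorophyll breakdown genes gave 3 calls for warm Col-0 and 6 for spaQ of 15. The warm-side share was near the 17.5% of all tested genes. SAG29, a sugar transporter gene, read 50.5, 56.8 and 17.5 CPM in warm Col-0 and 7.73, 5.75 and 4.17 CPM in spaQ (2.71, SE 0.4, adjusted p = 0.00018). SAG13, an alcohol dehydrogenase-like gene, went opposite at 37.9, 56.3 and 42.6 against 148, 346 and 318 CPM (-2.57, adjusted p = 0.0025). Their means in the reference were 1.69 and 1.08 CPM, and both genes were called higher than it in each state. SAG21, most abundant and overlapped by AT4G04125 on its own strand, fell short of the threshold (746, 817 and 793 against 979, 1145 and 1101 CPM, adjusted p = 0.071). The spaQ-side count was 10 in the fits with the root marker term, without the libraries of spaQ at 28 °C or with the 6 compared libraries alone, and 4 with library totals or without spaQ replicate 3. Of 15 genes of darkness and sugar starvation, 1 was higher in warm Col-0, the beta-glucosidase DIN2 (426, 149 and 389.7 against 53.6, 142 and 60.5 CPM, 1.93, adjusted p = 0.029), and 7 in spaQ, among them BT2 (155, 136 and 133 against 509, 449 and 455 CPM, -1.74, adjusted p = 3.8e-06) and DIN10 (387, 288 and 457 against 710.4, 722 and 596 CPM, -0.84, adjusted p = 0.0085). The DIN2 call was lost without warm Col-0 replicate 1 or 3, without spaQ replicate 1 or 3, and with the replicate block (adjusted p = 0.081), and in the same 3 fits as for the senescence genes the spaQ-side count of 7 became 11.

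Iron genes gave 3 calls for warm Col-0 and 8 for spaQ of 23, together 47.8%, against 36.5% of all tested genes. The warm-side share was below the 17.5% of all tested genes. The iron-deficiency bHLH factors bHLH38 (341, 211 and 138 against 108, 93.5 and 98.8 CPM, 1.2, adjusted p = 0.017), bHLH39 (1.01) and BHLH101 (0.81) were higher in warm Col-0. The storage ferritins FER1 (49, 93.5 and 110 against 144, 203 and 166 CPM, -1.02, adjusted p = 0.021), FER2 (-2.54), FER3 (23.5, 25.9 and 28.9 against 92.5, 72 and 65.5 CPM, -1.56, adjusted p = 0.00031) and FER4 (-1.04) were higher in spaQ, as was NAS3, a nicotianamine synthase gene (1.58, 3.6 and 4.61 against 29.3, 16.9 and 20.4 CPM, -2.85, adjusted p = 0.00086). In both states FER1, FER3 and FER4 were called lower, and the bHLH factors higher, than in Col-0 at 22 °C. The root uptake genes IRT1 and FRO2 were low in both states relative to the reference, at 0.394 and 5.04 CPM and at 4.91 and 3.21 CPM, against 75 and 32.4 CPM. Root markers were also higher in the reference. Between the states IRT1 was called higher in spaQ (adjusted p = 0.021), opposite to the bHLH factors. OPT3, most abundant, was not called (adjusted p = 0.16). Without warm Col-0 replicate 1 no iron gene was called higher in warm Col-0, and without spaQ replicate 1 or with library totals the spaQ-side count was 5.

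Nitrogen assimilation was higher in spaQ in 7 of 13 genes and in warm Col-0 in 2. GLU1, the photorespiratory glutamate synthase, read 575, 650.3 and 576 against 1502, 1257 and 1431 CPM (-1.22, SE 0.12, adjusted p = 7.5e-06), and the nitrate reductase NIA2, most abundant, 1193, 1203 and 1097 against 1653, 1755 and 2075 CPM (-0.65, adjusted p = 9e-04). The cytosolic glutamine synthetase GLN1.3 (69.3, 73.5 and 75.2 against 33.1, 31 and 26.7 CPM, 1.25, adjusted p = 5.7e-05) and the nitrate transporter NRT1.1 (0.44) were the warm-side members. Library-total scaling made the split 5 to 4, and without the libraries of spaQ at 28 °C in the fit it was 4 to 7.

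Markers of other tissues were looked at in the same way. Root markers gave 5 calls on each side of 24, together 41.7%, a share near the 36.5% of all tested genes. RWP1, a suberin acyltransferase gene, was higher in warm Col-0 (21, 20.8 and 25.3 against 9.92, 14.9 and 12.1 CPM, 0.9, adjusted p = 0.009) with GPAT5, CYP86A1, THAS1 and CYP708A2. SCR, an endodermis factor also expressed in shoots and the most abundant, was higher in spaQ (40.8, 34.2 and 29.7 against 59, 59.8 and 58.4 CPM, -0.76, adjusted p = 0.00094) with MYB36, SKOR, EIR1 and SHV2. The RWP1 call was lost without spaQ replicate 1. With library totals the split was 6 to 4. The spaQ-side count was 2 without warm Col-0 replicate 3 or spaQ replicate 1, 3 with the replicate block, and 11 against 6 on the warm side when the libraries of spaQ at 28 °C were left out of the fit; with the 6 compared libraries alone it was 3 on each side. The list median of -0.79 became 0.32 when only the 6 compared libraries entered the fit, with 11 markers tested, and -0.15 without spaQ replicate 1. Of 15 seed storage and late embryogenesis markers, carried as a check for ungerminated seed, 14 had too few counts to test. Their highest raw counts in a library were 0 to 8 in warm Col-0 and 3 to 47 in spaQ, the 47 being of the cruciferin gene CRU3, and for 13 of the 14 the highest count was in spaQ. With warm Col-0 replicate 2 or spaQ replicate 3 left out, 10 markers entered the test and 4 were called higher in spaQ. The list medians in these fits were -5.21 and -4.98, and -5.29 without warm Col-0 replicate 3, with 7 tested. Which markers entered depended on their counts in the libraries kept, so these calls and medians cannot decide whether seed transcripts differed. With no filter all 15 entered, most of them with few counts, and the median was -4.26. The marker tested in the main fit, SESA2, read 22.3, 3.85 and 3.46 CPM in warm Col-0 and 2.35, 2.68 and 2.5 CPM in spaQ (adjusted p = 0.074).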

How the data were processed

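The deposited counts are whole numbers of reads for each gene in 12 libraries of total RNA from seedlings; per the submitters' processing notes FastQC, Bowtie2, TopHat, HTSeq and edgeR were used, with no versions. The genome build and the strand setting are not given in the sources used here. The 5 summary lines of the counter (ambiguous reads, 0.453% to 0.616% of a library, among them) were left out, and no column of values was left unused. Counts were analysed in R 4.3.3 with edgeR 4.0.16: default low-count filter, TMM, 1 coefficient for each of 4 groups over 12 libraries so that spaQ at 28 °C informs only the spread, quasi-likelihood test, and Benjamini-Hochberg adjustment over 17841 genes. The code was tested on simulated data. Standard errors are the log2 fold change divided by the square root of its F. Floors of 3 counts cover counting error only.

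The members and lists were chosen with earlier results of these data known. Named by rule were SPA1 to SPA4, the 5 highest and 5 lowest called genes without overlap and with a mean of at least 10 CPM over the 6 libraries, and in each list up to 2 such members with the largest change and the most abundant one; other members were named after their values were seen. Symbols came from RefSeq (TAIR10.1), which matched 17835 tested genes. Of 708 list members 692 were matched by locus and name; 13 had no such match and 3 more (the small heat shock gene at AT1G59860, CNX2 and CHLP) had names that pointed to another gene, and these 16 were left out. Promoters are the 250 bases before the RefSeq gene start, taken from that assembly; identical stretches of 50 bases were sought in the last 500 bases of transcripts of the genes named by rule only. Alternatives were other scalings (DESeq2 1.42.0), filters, library sets, thinned counts, a replicate block, a root marker covariate and leaving out each library.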

Additional observations from a re-analysis of the deposited data

How the results depend on the processing

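The number of genes called between warm Col-0 and spaQ, 6518, stayed within 1.5 times under every alternative run, from 5032 without warm Col-0 replicate 1 to 8373 with library totals, and was 5678 at most with a library left out. DESeq2's Wald test called 5775 genes. The replicate numbers did not pair the libraries (correlations of 0.178, 0.0657 and -0.0752, with 2 of 6 libraries closest to their own number), and a fit with the replicate block called 5888. With root marker level in the model, calls fell to 591 for warm Col-0 and 1794 for spaQ against Col-0 at 22 °C. That level separated the reference from both states, so these falls do not measure a share of root transcripts. Only genes not called in the comparison changed sign. With library totals the log2 fold change became 0.2 for CUL4, 0.19 for STO, 0.28 for HSC70-1, 0.11 for CRD1, 0.3 for LBD37, 0.15 for COR413-PM1 and 0.06 for PYL4. HSC70-1 became 0.04 with no filter, 0 with 9 libraries and 0.01 with thinned counts, and between -0.06 and 0.04 with single libraries left out. LBD37 became 0.05 with no filter, 0.02 with 9 libraries, 0.01 with the 6 compared, and between -0.08 and 0.11 with single libraries left out. For named genes, 1475 of the recomputed values kept direction and side of the threshold, 16 lost and 26 gained a call. The smallest libraries, 2609808 counts in spaQ and 3382922 in warm Col-0, limit genes near 1 CPM. Apart from the covariate, the scaling and the left-out libraries, which change the model or its samples, the cause was not tested.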
